A study of Homo sapiens with 8 samples.

Results

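The genes for translation initiation and elongation factors were taken as all protein-coding genes whose GENCODE symbol begins with EIF or EEF. There were 72 such genes, 70 of them were in the count files, and 63 had enough reads to be tested among 13412 tested genes. They were measured by RNAseq in RKO, a human colon carcinoma line with intact beta-catenin signaling. All 8 samples had received wnt3a at 50 ng/mL for 24 hours. In 4 samples a control siRNA had been given, and in 4 samples an siRNA against A20, the ubiquitin-editing enzyme encoded by TNFAIP3. The comparison asked which transcripts differed with A20 knockdown in wnt3a-stimulated cells. No unstimulated sample was among the 8, and only 1 cell line was used. The labels do not say whether the replicates were separate cultures, so the p-values measure the spread between these samples, which may be technical.

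Translation starts when eIF2 brings the initiator tRNA to the small ribosomal subunit, to which eIF3 and the small factors eIF1 and eIF1A are bound. The eIF4 factors recognise the cap of the mRNA, unwind its leader and recruit the ribosome, and eIF5B helps the large subunit to join. eEF1A then carries each aminoacyl-tRNA to the ribosome and eEF2 moves the ribosome along the mRNA. Cells control the process mainly through kinases that phosphorylate eIF2, through proteins that sequester eIF4E, and through a kinase that inhibits eEF2. Many elongation factor mRNAs and a few initiation factor mRNAs begin with a C followed by a run of pyrimidines, the 5 prime TOP motif, through which mTOR and LARP1 control their translation and storage.

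Members with and without such a beginning are shown because they are compared by this feature further on. Each line gives 30 bases of RefSeq sequence, 15 before and 15 from the annotated transcription start, in the direction of the gene. Capitals mark a run of pyrimidines that begins with C at the start and continues for at least 4 more pyrimidines. The last 2 lines, for the scaffold EIF4G1 and the kinase EIF2AK2, have no such run.
EEF1A1: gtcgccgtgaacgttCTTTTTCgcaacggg
EEF2: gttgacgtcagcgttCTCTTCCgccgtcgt
EEF1B2: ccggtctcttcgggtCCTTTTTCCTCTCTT
EIF3F: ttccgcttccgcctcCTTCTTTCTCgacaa
EIF3K: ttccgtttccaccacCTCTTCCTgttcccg
EIF4B: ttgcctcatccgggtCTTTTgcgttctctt
EIF4A2: gttgggcgccgctgtCTTTTCagtcgggcg
EIF4G1: tctgtgcggggagccggaaatggttgtgga
EIF2AK2: gtccaaggggaaaacgaaactgagaaccag
On GRCh38.p14 these stretches lie at chr6:73521018-73521047 on the minus strand for EEF1A1, chr19:3985449-3985478 on the minus strand for EEF2, chr2:206159880-206159909 on the plus strand for EEF1B2 and chr11:7987322-7987351 on the plus strand for EIF3F. Those of EIF3K (chr19:38619173-38619202), EIF4B (chr12:53006441-53006470), EIF4A2 (chr3:186783562-186783591) and EIF4G1 (chr3:184314591-184314620) are on the plus strand, and that of EIF2AK2 (chr2:37156966-37156995) is on the minus strand. Each stretch runs from the promoter into the first exon. EEF1B2 and EIF4G1 had more than 1 annotated start, and 1 of them is shown. The run of EEF1B2 goes on past the last base printed.

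Levels are given as CPM, which scales the counts of each library to the same total after TMM, and a fold change is the log2 of the level with A20 siRNA over that with control siRNA. Total counts per sample ranged from 21226451 to 34194273, at which 3 counts correspond to 0.0877 to 0.141 CPM. The variation between replicates beyond counting was small, with a biological coefficient of variation of 2.73%. TNFAIP3 was measured at 4.92, 5.83, 5.59 and 5.54 CPM in control replicates 1 to 4 and at 3.47, 3.01, 3.40 and 3.43 CPM in A20 siRNA replicates 1 to 4. The groups did not overlap, and TNFAIP3 fell by 0.71 on the log2 scale (SE 0.095, adjusted p = 0.00258). The epithelial genes EPCAM (16.5 to 18.7 CPM) and KRT18 (91.2 to 101 CPM) and the intestinal factor CDX2 (15.6 to 18.1 CPM) were present. CDH1, KRT19, CDX1 and KRT20 had no count in any sample, and the colonic genes VIL1 and LGALS4 had at most 2 counts. The leukocyte genes PTPRC and CD3E had no count either, while CD68, a lysosomal protein of macrophages, had 18 to 35 counts per sample (0.737 to 1.44 CPM).

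Together the members took 2.36% ± 0.033 (SD, n = 4) of each control library and 2.32% ± 0.017 (n = 4) of each A20 siRNA library. The elongation class alone took 1.06% ± 0.028 with control siRNA and 1.02% ± 0.011 with A20 siRNA. It holds the elongation factors and the enzymes that modify them. Its share was 1.02%, 1.08%, 1.07% and 1.08% in control replicates 1 to 4 and 1.01%, 1.04%, 1.03% and 1.02% with A20 siRNA. Control replicate 1 lay among the A20 siRNA samples, and the other control samples lay above all of them. In bulk RNA, fewer cells of a kind and less of an mRNA per cell cannot be told apart.

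To compare genes, levels were divided by the length of the Ensembl canonical transcript, which makes them depend on the transcript chosen. EEF2 and EEF1A1 were the highest members per length, at 1510 and 1493 CPM per kb with control siRNA, and their ranges overlapped. EIF5A, which helps the ribosome through difficult peptide bonds, followed at 858 CPM per kb, then EEF1B2, an exchange factor for eEF1A, at 528, EIF3E at 382 and EIF4G2 at 364 CPM per kb. The elongation class ran from 2.75 CPM per kb for EEF1AKMT3, a methyltransferase of eEF1A, to EEF2, with the lowest median of the 7 classes at 16.4 CPM per kb. eIF3 had the highest median at 122 CPM per kb, and eIF2B, the exchange factor that recharges eIF2, stood at 18.2 CPM per kb. Within eIF2 the subunits EIF2S3, EIF2S2 and EIF2S1 had 127, 91.4 and 67.1 CPM per kb. Of the 4 eIF2 kinases, EIF2AK1 (the heme-regulated kinase) had 40.9, EIF2AK4 (GCN2, which senses uncharged tRNA) 32.6, EIF2AK2 (PKR, which binds double-stranded RNA) 26.2 and EIF2AK3 (PERK, of the endoplasmic reticulum) 3.84 CPM per kb.

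**Figure D1:**
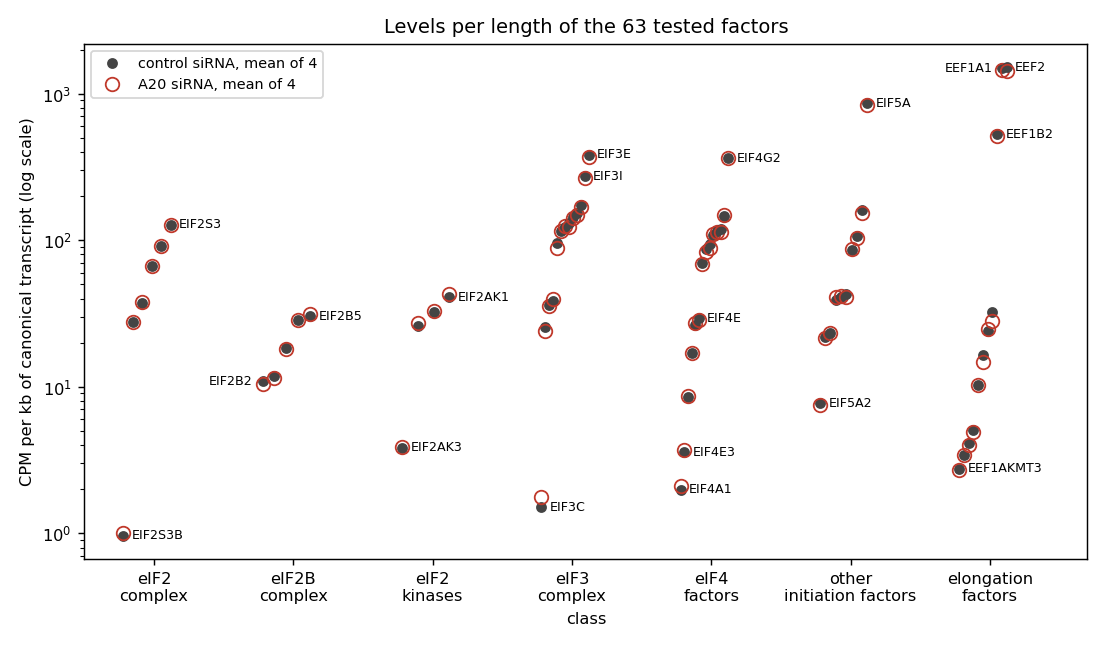
Level per length of the 63 tested members by class, in CPM per kb of canonical transcript on a log axis, with filled points for the mean of 4 control samples and open circles for the mean of 4 A20 siRNA samples. The 2 marks of each gene nearly coincide, and EEF2 and EEF1A1 lie highest, at 1510 and 1493 CPM per kb with control siRNA.

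Some low levels coincide with sequence that other genes share, and reads that map to more than 1 place, or to exons of 2 genes, may be missing from unique counts. EIF4A1, the helicase of the cap-binding complex, was counted at 3.86, 3.05, 3.51 and 3.51 CPM in control replicates 1 to 4 and 3.73, 4.19, 4.67 and 2.21 CPM in A20 siRNA replicates 1 to 4. All bases of its canonical transcript (100%) also lie in exons of the readthrough gene SENP3-EIF4A1 on the same strand, which itself had 1 to 7 counts. EEF1G, the gamma subunit of the eEF1 complex, had 0 counts in every sample, and 99.5% of its transcript lies in exons of a readthrough gene (ENSG00000255508) that had 57 to 89 counts. EIF3C and its copy EIF3CL share 97.9% of the 75-base windows of EIF3C, and they had 4.37 CPM with control siRNA and 0 to 2 counts, respectively. The levels of these 4 genes may therefore not measure how much of each mRNA the cells held, which was not tested. Of the abundant factors, EEF1B2 shared 48.6% of its windows with other genes, mostly processed copies, EEF1A1 33.7%, EIF4B 24.5% and EIF5A 21.8%, while EEF2 shared none. In EIF3L, 58.5% of the transcript lies in exons of another annotated gene on the same strand (ENSG00000279738).

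Besides EEF1G and EIF3CL, the members in the files but not tested were EEF1A2, the eEF1A form of muscle and neurons, EIF4E1B, EIF4EBP3, EEF1E1-BLOC1S5 and EIF1AY. EEF1A2 had 0 or 1 count per sample, EIF4EBP3 had 0 to 2, and EIF4E1B and EEF1E1-BLOC1S5 had 0. On the same strand, exons of other genes cover 73.2% of the EIF4EBP3 transcript and 100% of that of EEF1E1-BLOC1S5. Whether this lowered their counts was not tested. No value is given for EIF1AY. EEF1AKMT4 and EEF1AKMT4-ECE2 were not analysed here.

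No member passed the threshold with A20 siRNA by edgeR's quasi-likelihood test at an adjusted p-value under 0.05, with 0 of 63 lower and 0 of 63 higher, whereas 0.611% of all tested genes were lower and 0.634% higher. At an unadjusted p under 0.05, 10 members were lower and 3 higher, against 7.37% and 8.81% of all tested genes. DESeq2 called 2 members, both lower, with 0.91% of all genes lower, and limma-voom called 1, also lower, with 0.626% of all genes lower. The groups did not overlap for 4 members lower with A20 siRNA (3.9% of all genes) and for 3 members higher (3.71%). The fold change was below 0 for 40 of 63 members, 63.5%, where it was below 0 for 48.4% of all genes. The median was -0.018 on the log2 scale over the members and 0.0027 over all genes. The largest differences were small, from -0.18 for EEF1D to 0.22 for EIF3C. The 95% interval of the log2 fold change lay within 0.2 of 0 for 58 of 63 members and within 0.1 of 0 for 31. These intervals rest on the spread between these samples and on a partial knockdown of TNFAIP3. Without control replicate 1, 6 members passed the threshold, all lower (EEF1A1, EEF2, EIF3F, EIF3L, EIF4B and EIF4EBP1), while 3.18% of all genes were lower and 4.19% higher. Without A20 siRNA replicate 1 only EEF1D passed, with 1.12% of all genes lower, and without A20 siRNA replicate 2 only EIF3L, with 1.14% of all genes lower, so that 1 of 63 members (1.59%) was near the share of all genes.

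**Figure D2:**
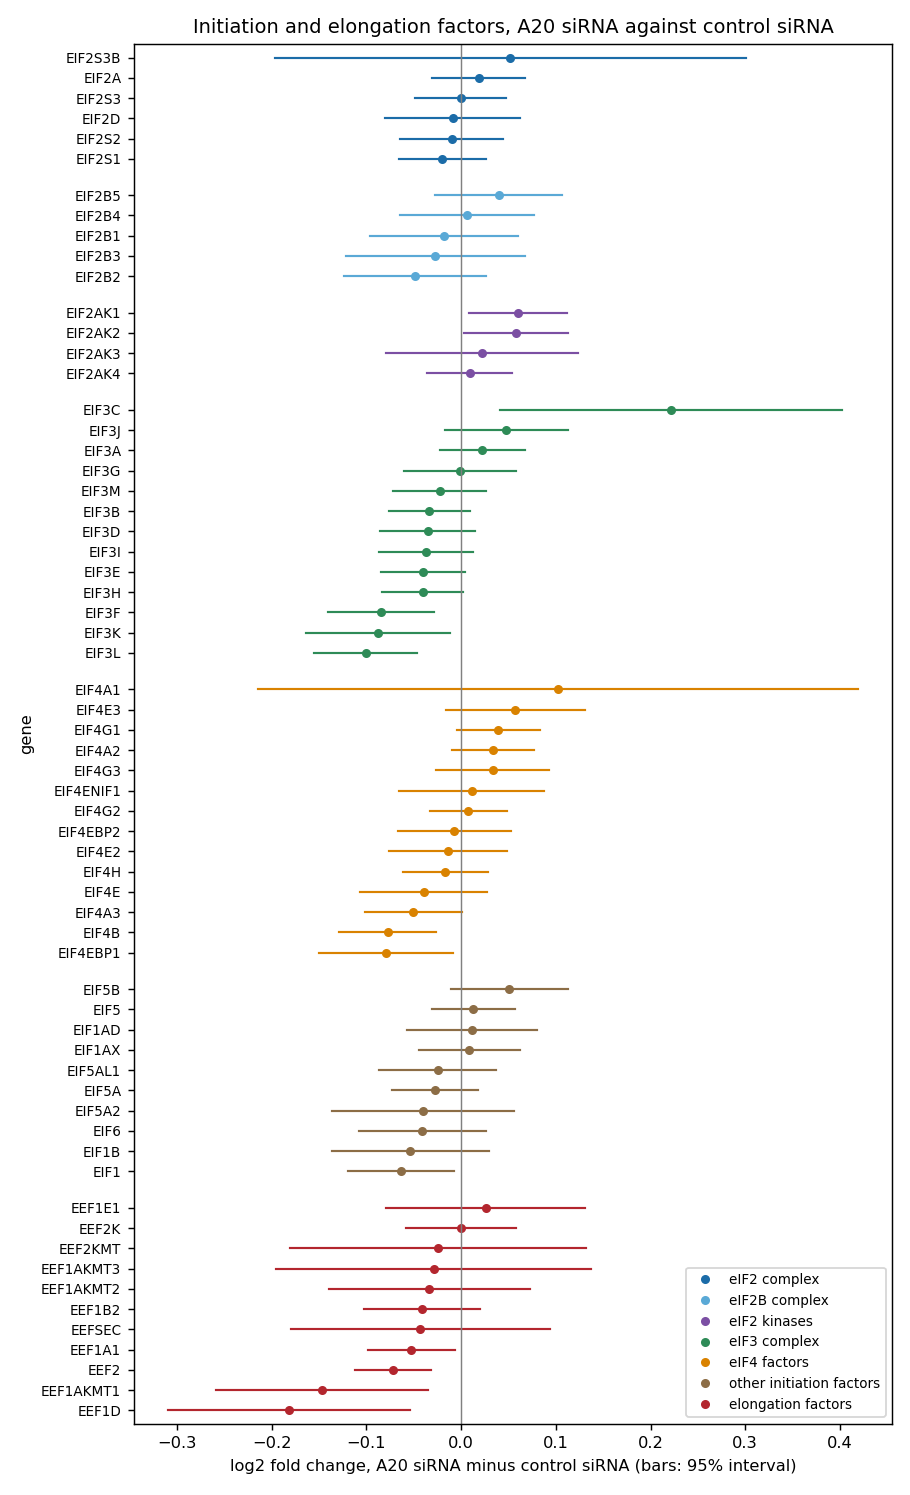
Log2 fold change (A20 siRNA minus control siRNA) of the 63 tested members with its 95% interval, grouped by class and ordered within it. The points run from -0.18 for EEF1D to 0.22 for EIF3C, and the intervals of 13 members leave out 0 before adjustment for the number of genes.

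A trend with exonic length, the joint length of a gene's annotated exons, ran through these samples. The rank correlation of each sample's deviation from the mean with exonic length was 0.079, -0.16, -0.11 and -0.20 in control replicates 1 to 4 and 0.069, -0.082, 0.14 and 0.18 with A20 siRNA. Control replicate 1 and A20 siRNA replicate 2 thus stood apart from their groups. The fold change correlated with exonic length with rho = 0.18 across all tested genes and 0.28 across the tested members, which are not independent replicates and share the same 8 libraries. A smooth trend with length was therefore also removed from each sample, and values without it are given below for some members and classes, but its part in the differences below was not tested further.

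In the elongation class, 10 of 11 tested members had a fold change below 0, none passed the adjusted test and the median was -0.041. Of the 6 factors themselves 5 were below 0, with a median of -0.048. Of the 5 enzymes that modify them 5 were below 0, with a median of -0.029, among them EEF2K at only -0.00027. EEF2, the translocase, was counted at 4604, 4789, 4801 and 4885 CPM in control replicates 1 to 4 and 4496, 4585, 4555 and 4516 CPM in A20 siRNA replicates 1 to 4. The groups did not overlap, although control replicate 1 was only just above the highest A20 siRNA sample (log2 fold change -0.07, SE 0.019, adjusted p = 0.0614). EEF1A1, which delivers aminoacyl-tRNA, was counted at 4967, 5340, 5317 and 5354 CPM in control replicates 1 to 4 and 4968, 5135, 5089 and 5035 CPM in A20 siRNA replicates 1 to 4. Control replicate 1 was level with the lowest A20 siRNA sample, and the other 3 control samples lay above all A20 siRNA samples (log2 fold change -0.05, SE 0.022, adjusted p = 0.239). EEF1B2, one of the exchange factors that recharge eEF1A, had 403 to 452 CPM with control siRNA and 408 to 429 CPM with A20 siRNA, which overlapped (log2 fold change -0.04, SE 0.029, adjusted p = 0.517). With the length trend removed its fold change was -0.02 (adjusted p = 0.723).

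EEF1D (chr8:143579697-143599541, GRCh38), another exchange factor, was counted at 66.0, 66.9, 64.7 and 71.7 CPM in control replicates 1 to 4 and 66.2, 64.7, 52.7 and 51.3 CPM in A20 siRNA replicates 1 to 4. Its lower mean came from A20 siRNA replicates 3 and 4, while replicates 1 and 2 lay within the control range (log2 fold change -0.18, SE 0.061, adjusted p = 0.139). Over all alternatives its fold change ranged from -0.25 to -0.13 and its adjusted p from 5.72e-06 without a filter on low counts to 0.381. In EEF1D, 34.5% of the transcript lies opposite exons of genes on the other strand, and reads from the 2 strands cannot be told apart unless the counting used strand, which is not given in the sources used here. EEF1AKMT1, a methyltransferase of eEF1A that was singled out after its values were seen, was counted at 17.3, 16.8, 17.5 and 17.4 CPM in control replicates 1 to 4 and 16.3, 16.3, 15.4 and 13.9 CPM in A20 siRNA replicates 1 to 4. The groups did not overlap and A20 siRNA replicate 4 was lowest (log2 fold change -0.15, SE 0.054, adjusted p = 0.176). EEF2K, the kinase that inhibits eEF2, had 73.8 to 78.4 CPM with control siRNA and 74.5 to 77.5 CPM with A20 siRNA. Its 95% interval was -0.06 to 0.06 on the log2 scale. EEF1E1, a scaffold protein of the tRNA synthetase complex, was the only tested member of the class with a fold change above 0 (log2 fold change 0.03, SE 0.05, adjusted p = 0.851). Without control replicate 1 the class median was -0.071, and with the length trend removed it was -0.028.

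**Figure D3:**
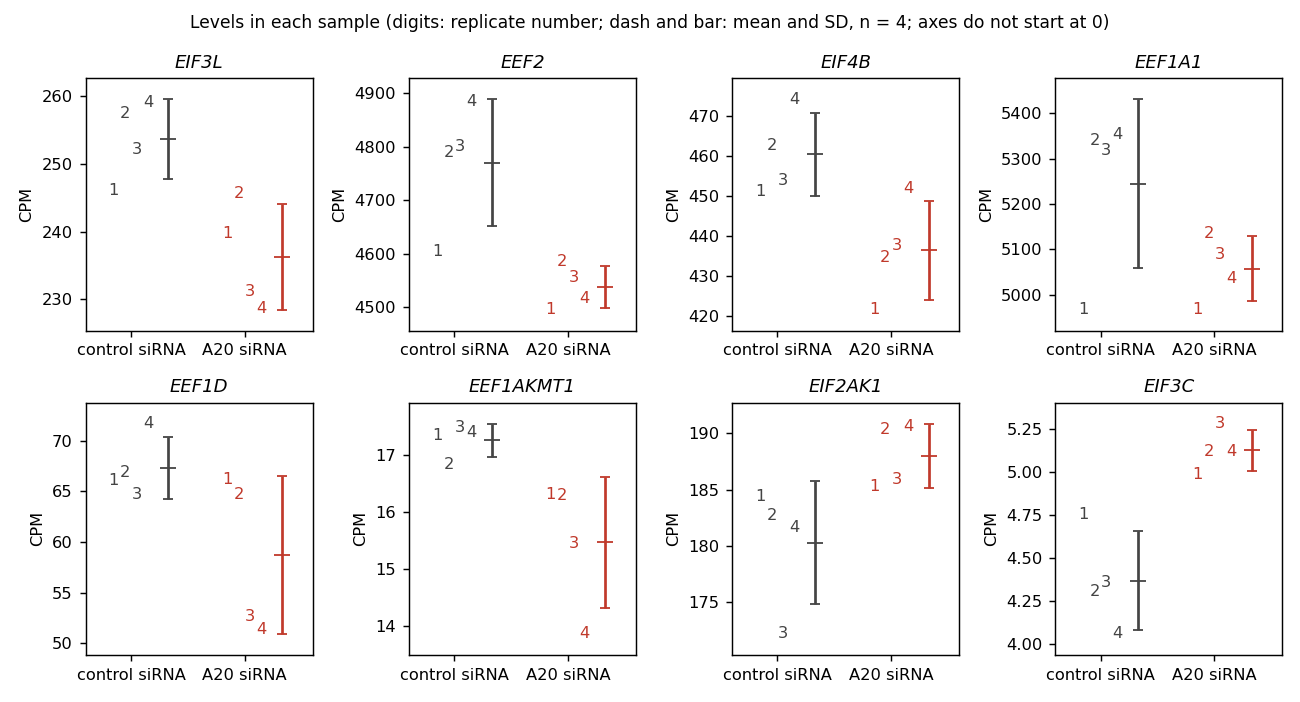
CPM in each of the 8 samples for 8 members, with digits for the replicate number and a dash and bar for the mean and SD of 4 samples (axes do not start at 0). For EIF3L, EEF2, EEF1AKMT1, EIF2AK1 and EIF3C the groups do not overlap, while in EEF1D A20 siRNA replicates 3 and 4 lie apart, at 52.7 and 51.3 CPM. The 8 were picked for display and do not represent the 63 tested members. Among those 63, the groups did not overlap for 4 lower and 3 higher (3.9% and 3.71% of all genes).

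In eIF3, the large complex that holds the small ribosomal subunit during initiation, 10 of 13 tested subunits had a fold change below 0, with a median of -0.036. EIF3L (chr22:37848868-37889407, GRCh38) had the lowest adjusted p-value of all members. It was counted at 246, 258, 252 and 259 CPM in control replicates 1 to 4 and 239.7, 246, 231 and 229 CPM in A20 siRNA replicates 1 to 4. The groups did not overlap, with the highest A20 siRNA sample just under the lowest control sample (log2 fold change -0.10, SE 0.026, adjusted p = 0.0570). It passed the threshold in 7 of the alternatives, DESeq2 among them (adjusted p = 0.0308), and over all alternatives its adjusted p ranged from 0.00361 to 0.197. EIF3F and EIF3K, both named after their values were seen, had the next lowest fold changes of the class. EIF3F was counted at 169, 176, 184 and 178 CPM in control replicates 1 to 4 and 169, 167, 160.4 and 169 CPM in A20 siRNA replicates 1 to 4. The groups were separated by a narrow gap (log2 fold change -0.08, SE 0.027, adjusted p = 0.113), and with the length trend removed the fold change was -0.11 (adjusted p = 0.0443). For EIF3F, the joint exonic length used in that correction is 15136 bases, against 6920 for its canonical transcript. EIF3K had 96.6 to 104 CPM with control siRNA and 86.7 to 100.5 CPM with A20 siRNA, with A20 siRNA replicate 4 lowest (log2 fold change -0.09, SE 0.036, adjusted p = 0.233).

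The scaffold subunit EIF3A had 787 to 827 CPM with control siRNA and 812 to 838 CPM with A20 siRNA and did not pass (log2 fold change 0.02, SE 0.021, adjusted p = 0.670, 95% interval -0.02 to 0.07). EIF3E had 747 to 786 CPM with control siRNA and 749 to 753 CPM with A20 siRNA (log2 fold change -0.04, SE 0.021, adjusted p = 0.356). With the length trend removed its fold change was -0.12 (adjusted p = 0.0518). The correction used the joint length of all annotated exons, which for EIF3E is 37761 bases against 2022 for its canonical transcript. EIF3H, likewise chosen after values were seen, had 592 to 614 CPM with control siRNA and 583 to 593 CPM with A20 siRNA (log2 fold change -0.04, SE 0.021, adjusted p = 0.339). EIF3C had the highest fold change of all members. It was counted at 4.76, 4.31, 4.36 and 4.06 CPM in control replicates 1 to 4 and 4.99, 5.12, 5.28 and 5.12 CPM in A20 siRNA replicates 1 to 4, and the groups did not overlap (log2 fold change 0.22, SE 0.086, adjusted p = 0.203). EIF3C shares most of its canonical transcript with EIF3CL, and the part of this sharing in its counts was not tested.

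Of the eIF2 kinases, which slow initiation by phosphorylating eIF2 under stress, 4 of 4 had a fold change above 0, with a median of 0.040. EIF2AK1 was counted at 184, 183, 172 and 182 CPM in control replicates 1 to 4 and 185, 190.3, 186 and 191 CPM in A20 siRNA replicates 1 to 4. The ranges were apart, and control replicate 1 was just below the lowest A20 siRNA sample (log2 fold change 0.06, SE 0.025, adjusted p = 0.231). EIF2AK2 was counted at 273, 257, 260.3 and 253 CPM in control replicates 1 to 4 and 264, 268, 276 and 279 CPM in A20 siRNA replicates 1 to 4. Control replicate 1 lay within the A20 siRNA range and the other 3 control samples below it (log2 fold change 0.06, SE 0.026, adjusted p = 0.281). EIF2AK3 (log2 fold change 0.02, SE 0.049, adjusted p = 0.873) and EIF2AK4 (log2 fold change 0.01, SE 0.021, adjusted p = 0.882) overlapped between the groups. The kinases are long by the joint length of all annotated exons, with a median of 11512 bases (4982 over all tested genes). Their canonical transcripts had a median of 5037 bases (3013.5 over all tested genes). The length correction used the joint exonic length, which for EIF2AK3 is 20691 bases against 4536 for its canonical transcript. With the length trend removed the class median was 0.013 and the fold changes of EIF2AK3 and EIF2AK4 turned to -0.020 and -0.013, while that of EIF2AK1 was 0.06 and that of EIF2AK2 0.04.

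The substrate of these kinases and its exchange factor showed no difference past the threshold. The eIF2 subunits EIF2S1 (log2 fold change -0.02, SE 0.022, adjusted p = 0.713), EIF2S2 (log2 fold change -0.01, SE 0.026, adjusted p = 0.893) and EIF2S3 (log2 fold change -0.00048, SE 0.023, adjusted p = 0.996) overlapped between the groups in every case. Their 95% intervals were -0.07 to 0.03, -0.06 to 0.04 and -0.05 to 0.05. The low copy EIF2S3B, which shares 16.4% of its windows with EIF2S3, had 2.23 to 2.79 CPM with control siRNA and 2.46 to 2.77 CPM with A20 siRNA (log2 fold change 0.05, SE 0.12, adjusted p = 0.879). With EIF2A and EIF2D, which can bring tRNA to the ribosome without eIF2, the class of 6 had a median of -0.0048 and 4 fold changes below 0. The 5 eIF2B subunits ranged from -0.05 for EIF2B2 to 0.04 for EIF2B5, the catalytic subunit, with a median of -0.018 and 3 below 0.

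The eIF4 factors were evenly divided, with 7 of 14 fold changes below 0 and a median of 0.00019. EIF4B, which stimulates the helicase, had the lowest unadjusted p of the class. It was counted at 451, 463, 454 and 474 CPM in control replicates 1 to 4 and 422, 435, 438 and 452 CPM in A20 siRNA replicates 1 to 4. A20 siRNA replicate 4 lay just above control replicate 1, and the other 3 A20 siRNA samples were below all control samples (log2 fold change -0.08, SE 0.025, adjusted p = 0.114). EIF4EBP1, a repressor that binds eIF4E, had 72.7 to 81.4 CPM with control siRNA and 72.0 to 75.8 CPM with A20 siRNA (log2 fold change -0.08, SE 0.034, adjusted p = 0.251), and the related EIF4EBP2 had a 95% interval of -0.07 to 0.05. The cap-binding protein EIF4E had 67.2 to 74.6 CPM with control siRNA and 67.6 to 70.4 CPM with A20 siRNA (log2 fold change -0.04, SE 0.032, adjusted p = 0.587).

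Among the helicases, EIF4A2 was counted at 205, 204, 204 and 207 CPM in control replicates 1 to 4 and 210.4, 209, 209.8 and 208 CPM in A20 siRNA replicates 1 to 4. The ranges were apart, but the difference was small (log2 fold change 0.03, SE 0.021, adjusted p = 0.452). EIF4A3, the helicase of the exon junction complex, overlapped and had the opposite sign (log2 fold change -0.05, SE 0.024, adjusted p = 0.318). EIF4A1 spread more widely than the others, with A20 siRNA replicate 4 lowest and replicate 3 highest of all samples (log2 fold change 0.10, SE 0.15, adjusted p = 0.792). The 3 scaffolds had fold changes above 0, at 0.04 for EIF4G1, 0.01 for EIF4G2, which acts without eIF4E, and 0.03 for EIF4G3. None of the scaffolds passed, and the 95% intervals were -0.0048 to 0.08, -0.03 to 0.05 and -0.03 to 0.09.

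Of the remaining initiation factors, 6 of 10 had a fold change below 0, with a median of -0.026. EIF1, which guards the choice of the start codon, had 366 to 390.5 CPM with control siRNA and 344 to 373 CPM with A20 siRNA (log2 fold change -0.06, SE 0.027, adjusted p = 0.246). EIF1AX (log2 fold change 0.01, SE 0.026, adjusted p = 0.910), EIF5, which triggers GTP hydrolysis by eIF2 (log2 fold change 0.01, SE 0.021, adjusted p = 0.812), and EIF5B (log2 fold change 0.05, SE 0.03, adjusted p = 0.416) overlapped between the groups. EIF5A had 1062 to 1115 CPM with control siRNA and 1038 to 1093 CPM with A20 siRNA (log2 fold change -0.03, SE 0.022, adjusted p = 0.583), and its relative EIF5A2 was much rarer, at 39.6 to 46.6 CPM with control siRNA and 38.9 to 44.4 CPM with A20 siRNA (log2 fold change -0.04, SE 0.046, adjusted p = 0.725). EIF6, which keeps the ribosomal subunits apart, had 108 to 118 CPM with control siRNA and 106 to 115 CPM with A20 siRNA (log2 fold change -0.04, SE 0.032, adjusted p = 0.573).

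Some members known as mTOR targets through a 5 prime TOP start (EEF1A1, EEF1B2, EEF1D, EEF1G, EEF2, EIF3E, EIF3F, EIF3H and EIF4B) were listed from background knowledge. The list may leave out other such members. Members outside it with a C-led run, described below, had fold changes on both sides of 0. Of the 8 listed members that were tested, 8 had a fold change below 0, against 48.4% of all tested genes, with a median of -0.062. At an unadjusted p under 0.05, 5 were lower, against 7.37% of all tested genes. None passed the adjusted test. Of the other 55 tested members, 32 were below 0 and the median was -0.0091. The list was made with earlier results of these data known, so its direction is no independent evidence.

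A grouping by the annotated sequence alone was also made, but it is not independent of that list. EEF1A1, EEF1B2, EEF2, EIF3F and EIF4B are on the list and also have the C-led run, and each had a fold change below 0. Of 72 members, 55 matched at least 1 RefSeq start. The listed EEF1D, EIF3E and EIF3H matched none of the starts used here. They lie on chromosome 8, from which no start of a member was used, so they may have annotated starts that were not examined. The C-led run shown above was searched only on the sense strand and only at the start itself. It was present at any start of 13 of these members. Counted per start rather than per gene, it was present at 4.07% of 35116 annotated starts. Of the tested genes, counted as the members were, 743 had it and 9124 did not. Among the tested members 10 of 13 with the run had a fold change below 0, with a median of -0.036. Among the 38 tested members with another start 20 were below 0, with a median of -0.0038. The same direction was seen over all genes, of which 437 of 743 with the run (58.8%) were below 0 with a median of -0.011, against 48.6% of those with another start. All genes here include the members, so this is not a separate set. Ribosomal protein genes were not set apart, and the length trend was not removed for this grouping. Of the genes with the run 21 were lower and 4 higher at an adjusted p-value under 0.05, against 44 lower and 59 higher of 9124 genes with another start. A match of the letters is no proof that the mRNA begins there in these cells. Among the members with the run, EIF4A2, EIF2A and EIF2S3B had fold changes above 0, at 0.03, 0.02 and 0.05.

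**Figure D4:**
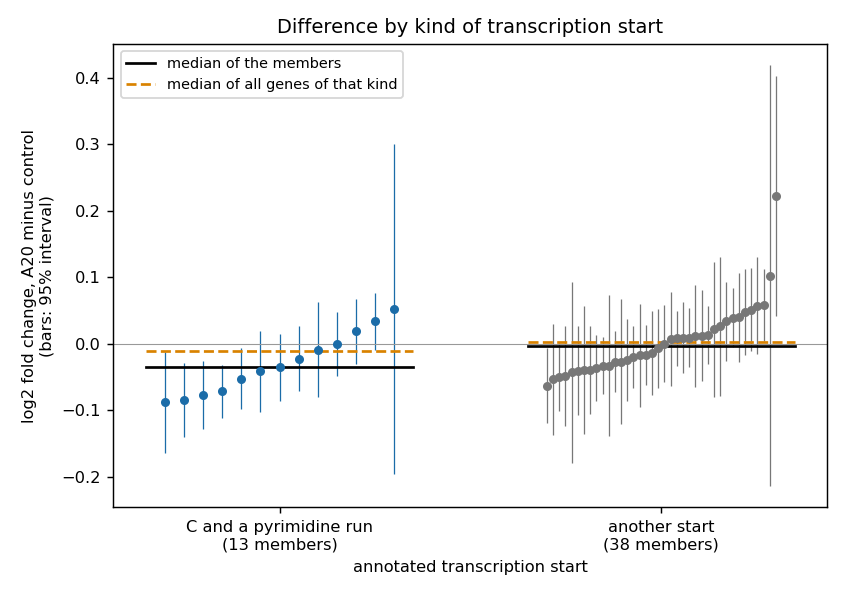
Log2 fold change with 95% interval of 51 tested members by kind of annotated transcription start, ordered within each kind. Black lines mark the members' medians (-0.036 and -0.0038) and dashed lines the medians of all tested genes of that kind (-0.011 and 0.0022), and the 2 kinds overlap widely.

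Further genes of translation control were followed as a list of 39, comprising cap and poly(A) binding proteins, mTOR and its substrates, ribosome recycling and release factors, eIF2 phosphatase subunits and the enzymes that modify eIF5A and eEF2. None of the 39 passed the adjusted test, 19 were below 0 and 20 above, and the median was 0.0022. At an unadjusted p under 0.05, 1 was lower and 3 were higher, against 7.37% and 8.81% of all tested genes. The lowest adjusted p was that of RACK1, a scaffold protein of the small ribosomal subunit, with 1500 to 1609 CPM with control siRNA and 1476 to 1516 CPM with A20 siRNA (log2 fold change -0.07, SE 0.022, adjusted p = 0.133). Control replicate 1 again lay within the A20 siRNA range. MTOR itself, the kinase that acts on LARP1 and the eIF4E-binding proteins, had 126 to 134 CPM with control siRNA and 129 to 137 CPM with A20 siRNA (log2 fold change 0.06, SE 0.026, adjusted p = 0.271). PABPC1, the main poly(A) binding protein, also known to have a TOP start, had a fold change of 0.02 (SE 0.020, adjusted p = 0.713).

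By class, the medians of eIF3 (-0.050 to -0.028), the elongation class (-0.071 to -0.025) and the other initiation factors (-0.041 to -0.0070) were below 0 under every setting examined. That of the kinases was above 0 under every setting (0.013 to 0.049). All settings draw on the same 8 libraries. The medians of the eIF2 complex, eIF2B and the eIF4 factors changed sign between settings.

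**Figure D5:**
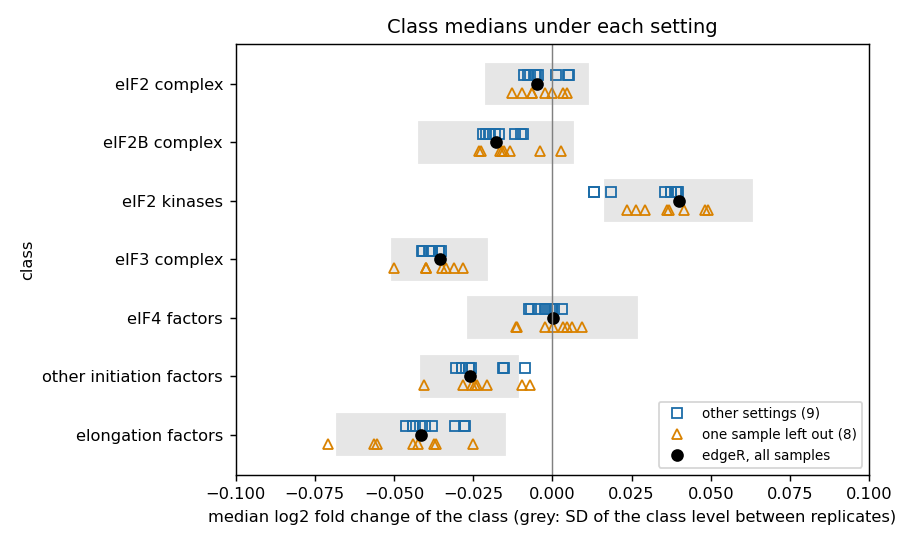
Median log2 fold change of each class in edgeR with all samples (black), under 9 other settings (squares) and with each of the 8 samples left out in turn (triangles), with a grey band of 1 SD of the class level between replicates to each side. The medians of eIF3, the elongation class and the other initiation factors stay below 0 and the kinase median above 0, while the eIF4 median lies at 0.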

How the data were processed

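RNA had been captured by its poly(A) tail with the Kapa mRNA HyperPrep kit and sequenced as single reads of 75 bases on a HiSeq instrument. The authors trimmed the reads with Trimmomatic, mapped them to GRCh38.p7 with STAR and deposited raw counts of uniquely mapping reads for 57992 genes per sample. The GENCODE release, the strand setting and the versions of Trimmomatic and STAR are not given in the sources used here. The submitters also list DESeq2.

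Identifiers without version were matched to GENCODE release 44 (56948 of 57992 matched), whose coordinates may differ from the release used. The counts went through edgeR 4.0.16 under R 4.3.3, using filterByExpr with a minimum count of 10, TMM scaling, the quasi-likelihood test without covariates over 13412 genes, and Benjamini-Hochberg adjustment with a threshold of 0.05. Standard errors came from the fold change and the F statistic. The alternatives were RLE scaling, no filter on low counts, DESeq2 1.42.0, limma-voom 3.58.1, a minimum of 10 counts in all samples, a block for the replicate number, removal of a loess trend per sample (span 0.5) on exonic length or on length plus GC, the block with the length trend removed, and each sample left out. The fits were checked on simulated counts. Total counts were 21226451 to 34194273 per sample, and limits drawn from them cover counting error only.

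The members and lists were chosen with earlier results of these data known. Named members were those past the threshold, those with the highest and lowest fold change or the highest level per length in each class, a fixed list of core factors, and others stated to be chosen after values were seen. Transcription starts came from RefSeq (GRCh38.p14), and shared sequence was counted as identical 75-base windows between annotated transcripts.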

Additional observations from a re-analysis of the deposited data

Results flagged for a closer look

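Among 84 groups of 4 samples examined (each named tested member and TNFAIP3, in each group), 4 had a sample whose gap to the nearest other sample exceeded Dixon's 95% critical share of the group's range. Chance gives about 1 in 20 groups, or 4.2 here. EEF1A1 was 4967 CPM in control replicate 1 and 5317 to 5354 CPM in the other controls, a gap of 0.904 of the range. EEF1B2 was 429 CPM in A20 siRNA replicate 2 and 408 to 412 CPM in the others, a gap of 0.836. EIF2AK4 was 184 CPM in A20 siRNA replicate 4 and 181 CPM in each of the others, a gap of 0.912. TNFAIP3 was 3.01 CPM in A20 siRNA replicate 2 and 3.40 to 3.47 CPM in the others, a gap of 0.846. Control replicate 1 and A20 siRNA replicate 2 were also the samples whose length trend ran against their groups, and the part of that trend in these gaps was not tested.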

How the results depend on the processing

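TNFAIP3 kept its direction and its side of the threshold under every alternative with an adjusted p (DESeq2 gave none for TNFAIP3, EIF3C, EIF2S3B and EIF4A1). No member was called higher under any alternative. None was called lower with RLE scaling (0.708% of all genes lower) or with at least 10 counts in every sample (0.602%). Members called lower numbered 5 without a filter on low counts (EEF1D, EEF2, EIF3F, EIF3L and EIF4B; 1.08% of all genes lower), 2 with DESeq2 (EEF2 and EIF3L; 0.91%), 1 with limma-voom (EEF2; 0.626%), 1 with the length correction (EIF3F; 0.872%) and 1 with the length and GC correction (EIF3L; 0.954%). With the replicate block 4 were called (EEF1D, EEF2, EIF3L and EIF4B; 1.58% of all genes lower), and 7 with the block and the length correction (these and EEF1A1, EIF3F and EIF3E, the last at a log2 fold change of -0.11 and adjusted p = 0.00767; 1.67%), against 0.611% in edgeR with all samples and no block. The replicate numbers were not shown to pair the samples, since same-numbered deviations correlated by only -0.0098 to 0.084. Between 0 and 6 were called with 1 sample left out. None was called without control replicate 2, 3 or 4, or without A20 siRNA replicate 3 or 4. In those fits 0.0443% to 0.192% of all genes were lower. The cause of these changes was not tested.

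The kinase median was 0.013 with the length correction, alone or with the replicate block, and that of the other initiation factors -0.0086 with the length and GC correction. With 1 sample left out, class medians ranged from -0.0709 to -0.0250 for the elongation class and -0.0407 to -0.00703 for the other initiation factors. Of 41 named tested members 29 kept their sign throughout. Values that turned sign were 9.69e-05 for EEF2K with limma-voom, 0.000560 for EEF2K with the replicate block, -0.0196 for EIF2AK3, -0.0127 for EIF2AK4, 0.00419 for EIF2S2, 0.00611 for EIF2S3, -0.00205 for EIF4G2 with the length correction, -0.0100 for EIF2AK3, -0.00963 for EIF2AK4, 0.00436 for EIF2S3 with the length and GC correction, and -0.0203 for EIF2AK3, -0.0126 for EIF2AK4, 0.00380 for EIF2S2, 0.00617 for EIF2S3, -0.00199 for EIF4G2 with the block and the length correction. With 1 sample left out, fold changes ranged from -0.0267 to 0.0568 for EEF1E1, -0.0179 to 0.0105 for EEF2K, -0.00951 to 0.0255 for EIF1AX, -0.00156 to 0.0463 for EIF2AK3, -0.0269 to 0.0113 for EIF2S2, -0.0161 to 0.0107 for EIF2S3, -0.00592 to 0.105 for EIF2S3B, -0.00906 to 0.248 for EIF4A1, -0.0341 to 0.00461 for EIF4EBP2, -0.00248 to 0.0142 for EIF4G2, -0.0756 to 0.000200 for EIF5A2. Depth limits EIF3C, EIF4A1 and EIF2S3B most, as 3 tested members had under 100 reads in a sample.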
